A study of Mus musculus with 12 samples.

Results

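The miR-146 family, miR-155 and miR-21 are microRNAs best known as brakes and amplifiers of inflammation. Their mature strands were looked for by name among the 593 TaqMan assays of the deposited CT table, under 4 names: miR-146a, miR-146b, miR-155 and miR-21. The rows of the table carry numbers in place of names. A row was given a name where its 8 cytoplasmic and nuclear CT values equalled those the study lists for a single miRNA within 0.0005 cycles, or, failing that, where its whole cell CT differences, put on the scale of the listed whole cell values by a fitted straight line, matched those values within 0.002; this named 269 rows. Of the 4 names, 3 were found: miR-146a and miR-155 through the fraction CT values, and miR-21 through the whole cell differences alone. No row could be named miR-146b, which is not analysed here.

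The samples were sorted from the bone marrow of C57BL/6 mice. LSK cells, which lack lineage markers, carry Sca1 and cKit and include the hemopoietic stem cells and early progenitors, were compared with promyelocytes, myelocytes and granulocytes, the successive stages of neutrophil formation. Each stage gave 1 whole cell, 1 cytoplasmic and 1 nuclear RNA sample of 100 ng, 12 samples in all, each read in 1 well per assay; the labels name no treatment and no altered gene, and do not say how many animals a sample came from. With 1 sample per group no test between stages was possible, so that every difference given here compares 1 library with another and has no replicate check.

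The CT is the PCR cycle at which the product of an assay crosses a threshold. Low CT values mean abundant template, and each cycle is worth 2-fold at full efficiency. An undetermined well is listed at 40, and values above a CT of 30 were treated as poorly measured. Between 259 and 294 assays had a CT under 40 in the whole cell and cytoplasmic samples and between 199 and 229 in the nuclear samples. Markers were listed for LSK and granulocytes, not for promyelocytes or myelocytes, and were chosen with earlier results of these data known. They are therefore no independent check of the sorts. All 5 miRNAs listed as LSK markers (miR-125a-5p, miR-125b-5p, miR-126-3p, miR-130a and miR-196b) had their lowest CT in LSK in each kind of RNA, and whole cell miR-223, the granulocytic marker, went from a CT of 24.0 in LSK to 16.4 in granulocytes. The erythroid markers miR-451 and miR-144 were not among the named rows.

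MicroRNAs guide Argonaute proteins to messenger RNAs, and bases 2 to 8 of the mature strand, the seed, carry most of the pairing. miR-146a is induced by NF-kB and represses Traf6 and Irak1, signal carriers below Toll-like receptors, which makes it a feedback inhibitor. Mice without it develop myeloid overgrowth. miR-155, processed from the transcript formerly called Bic, is induced in activated macrophages, B cells and T cells, represses Ship1 and Socs1, and when overexpressed in bone marrow expands granulocyte and monocyte precursors. miR-21 represses Pdcd4 and is made by many cell types, with raised levels in inflamed tissue and in tumours.

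The mature strands are shown because the seeds separate the 3 miRNAs into different target families, and because miR-146a and miR-146b differ by few letters. They were taken from RefSeq on GRCm38.p6, in which all 3 miRNAs were matched; the CT table itself carries no genome build. Capitals mark the seed, bases 2 to 8 from the 5′ end.
miR-146a: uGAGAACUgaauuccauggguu
miR-146b: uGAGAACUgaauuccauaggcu
miR-155: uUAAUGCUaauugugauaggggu
miR-21: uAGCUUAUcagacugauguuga
miR-146b*: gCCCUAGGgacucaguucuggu
miR-21*: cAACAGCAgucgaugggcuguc

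miR-146a (gene Mir146) lies on chr11:43374435-43374456, minus strand, in no other annotated gene, between Atp10b and Gm5782. miR-146b lies on chr19:46342790-46342811, plus strand, where its gene overlaps Gm36493. Over 22 positions counted from the 5′ end, miR-146a and miR-146b differed at 2, G18A and U21C (the miR-146a base first), and shared the seed GAGAACU, which no further mature miRNA of the table carried. Whether the miR-146a assay also reads miR-146b was not tested. miR-155 lies on chr16:84714143-84714165, plus strand, inside its host transcript Mir155hg, and shared its seed with no listed miRNA. miR-21 (gene Mir21a) lies on chr11:86584120-86584141, minus strand, overlapping Vmp1. Its seed AGCUUAU was shared with miR-21c alone, while miR-21b differed inside the seed by C4U.

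miR-146a was lowest in promyelocytes in whole cell RNA and, on the raw CT, in cytoplasmic RNA, and higher again in myelocytes. Its whole cell CT stood at 25.3 in LSK and 27.4 in promyelocytes, then at 24.4 in myelocytes and 25.9 in granulocytes. Cytoplasmic miR-146a read 23.8 in LSK, 28.5 and 25.9 in promyelocytes and myelocytes, and 27.2 in granulocytes. LSK held the most cytoplasmic miR-146a. Whole cell myelocytes stood 0.66 on the log2 scale above LSK after scaling to the last 3 assays, but -0.098 and -0.12 with the mean and the median CT, so that the top of the whole cell series depends on the scaling. Promyelocytes were at the bottom of both series; with cytoplasmic RNA scaled to the last 3 assays, granulocytes were lower than promyelocytes by a log2 difference of -1.97. Nuclear miR-146a read 28.6 in LSK and 29.9 in granulocytes, with 31.0 in promyelocytes and 30.9 in myelocytes between them, so that the promyelocyte and myelocyte values, nearly equal, lay past the limit of 30. In these bulk samples fewer cells carrying a miRNA and less of it per cell cannot be told apart.

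miR-155 was lower at each stage than at the one before it, in every kind of RNA. Its whole cell CT climbed from 26.1 in LSK through 27.4 (promyelocytes) and 28.9 (myelocytes) to 30.1 in granulocytes. The cytoplasmic CT in this order was 24.9, 27.99, 29.5 and 31.2, and the nuclear CT 28.4, 30.2, 33.4 and 34.7. LSK held the most and granulocytes the least in each series, and in granulocytes all 3 readings lay past a CT of 30.

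miR-21 varied least in whole cell and cytoplasmic RNA. Its whole cell CT, in order of maturation from LSK to granulocytes, was 28.3, 27.2, 26.6 and 27.1, with the highest CT, and so the lowest level, in LSK. The cytoplasmic CT was 26.1 in LSK and then 27.8, 27.4 and 27.6, which places LSK at the other end. Nuclear miR-21 read 32.2 in LSK and 32.3 in promyelocytes, then 35.1 and 31.3 at the later stages, all past the limit of 30. The whole cell and cytoplasmic series of miR-21 thus put LSK at opposite ends.

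**Figure D1:**
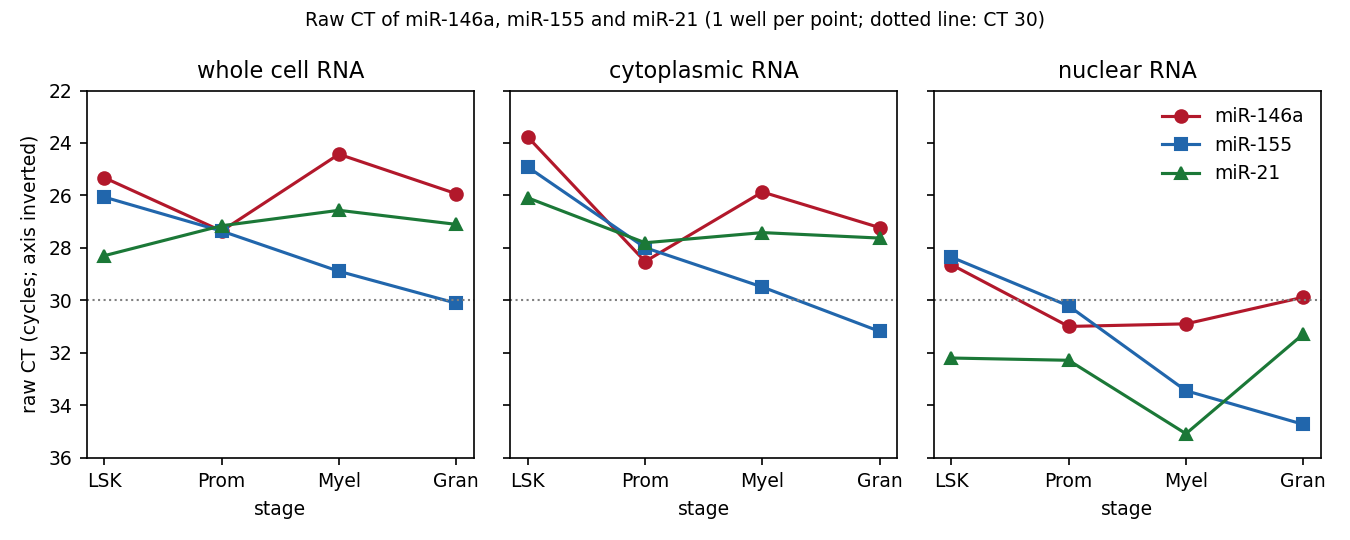
Raw CT in cycles (vertical axis inverted, so that more template is higher) of miR-146a, miR-155 and miR-21 by stage in whole cell, cytoplasmic and nuclear RNA; each point is 1 well, lines join the stages, and the dotted line is a CT of 30. miR-146a dips in promyelocytes to 27.4 in whole cell and 28.5 in cytoplasmic RNA, miR-155 goes down throughout to 30.1, 31.2 and 34.7 in granulocytes, and whole cell miR-21 stays between 26.6 and 28.3.

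The other arms of the precursors were near the end of detection. miR-146b*, the only named product of the miR-146b precursor, was undetermined in whole cell RNA of myelocytes (listed at 40) and read 35.4 in LSK, 34.1 in promyelocytes and 34.7 in granulocytes, although its cytoplasmic CT in myelocytes was 34.3. miR-21* was undetermined in whole cell LSK and read 33.7, 34.7 and 32.01 at the later stages. Both stayed above a CT of 30 in all 12 samples, and no order of stages was read from them. The passenger arms miR-146a* and miR-155* were not among the named rows.

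Whole cell changes between stages were taken after scaling each sample to its average over the last 3 assays listed, and are given as log2 changes, positive where the later stage was higher. From LSK to promyelocytes miR-146a was 4.86-fold lower (log2 change -2.28) and miR-155 was 2.91-fold lower (-1.54), while miR-21 was 1.86-fold higher (0.89), short of 2-fold on this scaling but past it without scaling (1.14) and with the median CT (1.07). Of the 3 miRNAs 2 were thus at least 2-fold lower, beside 17.0% of the 112 assays under a CT of 30 in either stage, whose median was 0.36. At the next step, from promyelocytes to myelocytes, miR-146a was 7.67-fold higher (2.94), which ranked 9th from the top of 119 assays and stood 2.28 above their median of 0.66. With the median CT as the scale this change was 1.98. miR-155 went the other way and was 2.87-fold lower (-1.52), 7th from the bottom. Among all assays 39.5% were at least 2-fold higher and 12.6% at least 2-fold lower at this step, and miR-21 was 1.52-fold higher (0.60), close to the median.

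The last step, from myelocytes to granulocytes, moved few assays: 6.30% of 127 were at least 2-fold lower and 10.2% at least 2-fold higher, around a median of 0.10. miR-146a and miR-155 were both among the lower ones. Granulocytes held 3.85-fold less miR-146a than myelocytes (-1.94, the third lowest of the 127 changes) and 3.15-fold less miR-155 (-1.66, the fourth lowest). miR-21 was 1.97-fold lower (-0.98, 9th from the bottom), just short of the 2-fold limit. Over the whole course, from LSK to granulocytes, miR-155 was 26.3-fold lower (-4.72, 5th lowest of 132) and miR-146a 2.44-fold lower (-1.29, or -0.61 and within 2-fold without scaling), beside 16.7% of assays at least 2-fold lower, and miR-21 was 1.43-fold higher (0.52) where the median assay was higher by 1.20. This miR-21 change became -0.24 with the mean CT and 1.19, past 2-fold, without scaling. The split of called assays depends on the scaling: 35 higher and 19 lower from LSK to promyelocytes became 27 and 23 with the mean CT, 47 and 15 at the next step became 23 and 44 with the median CT, 13 and 8 at the last became 35 and 5 without scaling, and 69 and 22 over the whole course became 51 and 33 with the mean CT. No single alternative moved every step this far. With the mean CT the middle step was 35 and 29 and the last stayed 13 and 8, and without scaling the middle step stayed 47 and 15.

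Cytoplasmic RNA, compared on the raw CT, gave the same sequence of directions for miR-146a and miR-155. miR-146a was 26.8-fold lower in promyelocytes than in LSK (-4.74), 6.27-fold higher in myelocytes than in promyelocytes (2.65) and 2.56-fold lower in granulocytes than in myelocytes (-1.36, the fourth lowest of 117). miR-155 was 8.40-fold lower at the first step (-3.07), 2.83-fold lower at the second (-1.50, 8th lowest of 120) and 3.23-fold lower at the third (-1.69, the third lowest of 117). miR-21 was 3.28-fold lower at the first step (-1.71) and within 2-fold at the second (0.39) and the third (-0.21). The first of these steps lowered most assays: all 3 miRNAs were at least 2-fold lower, and so were 65.4% of the 127 assays, with a median of -1.26. At the second step 55.0% were at least 2-fold higher and 10.0% at least 2-fold lower, and at the third 12.8% and 11.1%. Against the median of each step, cytoplasmic miR-146a stood at -3.48, 1.46 and -1.44, miR-155 at -1.81, -2.69 and -1.77, and miR-21 at -0.45, -0.80 and -0.29. From LSK to granulocytes miR-155 was 76.8-fold lower (-6.26), miR-146a 11.0-fold lower (-3.45) and miR-21 2.89-fold lower (-1.53), beside 37.0% of 138 assays at least 2-fold lower. Scaled to the last 3 assays, the cytoplasmic split of called assays went from 11 higher and 83 lower to 39 and 20 at the first step, from 66 and 12 to 19 and 45 at the second, from 15 and 13 to 2 and 87 at the third, and from 45 and 51 to 14 and 83 over the whole course. Under this scaling miR-21 turned direction at the first and second step, to 0.14 and -1.29. miR-146a became -2.89, 0.97 and -2.95 over the 3 steps, losing the 2-fold difference at the second. miR-155 became -1.22, -3.18 and -3.28, so that neither miR-146a nor miR-155 turned. Across the 4 cytoplasmic samples the last 3 assays had mean CT values from 22.9 to 26.2. The mean over assays under a CT of 30 in all 4 ran from 25.5 to 26.7. From LSK to granulocytes the nuclear minus cytoplasmic CT of the last 3 assays was -3.59, -5.68, -2.60 and -1.03.

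**Figure D2:**
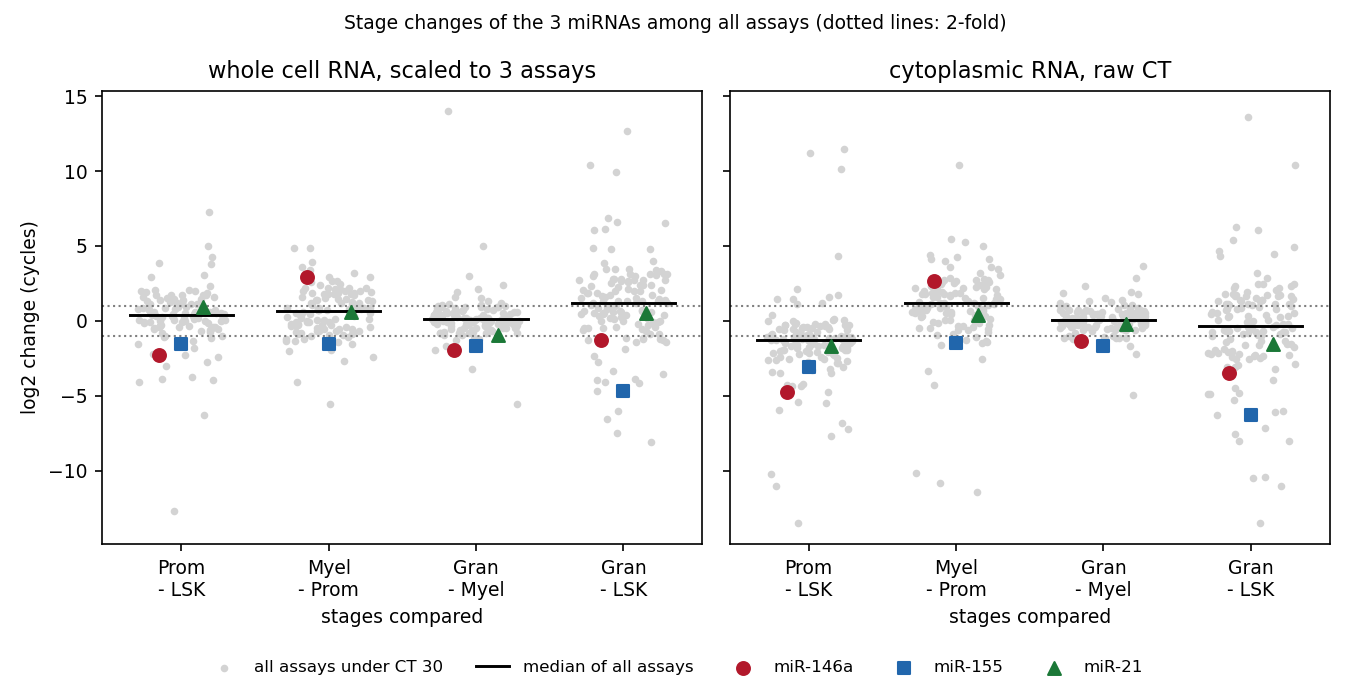
Log2 change (in cycles) between stages in whole cell RNA, scaled to the last 3 assays, and in cytoplasmic RNA, on the raw CT; grey points are all assays with a CT under 30 in either stage (the extreme ones include wells listed at 40), black bars their medians, and dotted lines 2-fold. miR-146a lies at -2.28, 2.94 and -1.94 over the 3 whole cell steps, miR-155 lies below the lower line at every step, and whole cell miR-21 stays between the lines.

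The whole cell and cytoplasmic samples of a stage are separate RNA preparations of like cells. They are not replicates, but they show how far readings of the same stage lay apart. After the shift common to all assays was taken off, the median absolute difference between the 2 kinds of change was 0.48 cycles from LSK to promyelocytes, 0.40 from promyelocytes to myelocytes and 0.36 from myelocytes to granulocytes. The common shift was 1.61 cycles at the first step and -0.57 and -0.14 at the next ones, and 49 of 109 assays, 95 of 112 and 78 of 116 had the same direction in both kinds of RNA. For miR-155 the 2 readings lay 1.53, -0.02 and 0.04 apart, and for miR-146a 2.46, 0.29 and -0.59. For miR-21 the gap was 2.60 at the first step, where the directions differed, and 0.21 and -0.77 at the next ones. Over all assays LSK had the widest gap between the preparations: the median whole cell CT exceeded the cytoplasmic one by 1.35 cycles there, against -0.59, -0.066 and -0.50 at the later stages. For miR-21 the gap in LSK was 2.21, and for miR-146a it was 1.55 in LSK and -1.16, -1.44 and -1.29 afterwards, farthest from the median in myelocytes. How much of each change against LSK belongs to this offset was not tested.

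Set beside these distances, the gaps between stages were wide for miR-155 and narrow for miR-21. Whole cell miR-155 ran LSK, promyelocyte, myelocyte, granulocyte with gaps of 1.54, 1.52 and 1.66 on the log2 scale, and the cytoplasm and the nucleus had the same order, over spans of 26.3-fold, 76.8-fold and 82.8-fold; the first gap was about as large as the offset of LSK, and the granulocyte values lay past a CT of 30. Whole cell miR-146a ran myelocyte, LSK, granulocyte, promyelocyte with gaps of 0.66, 1.29 and 0.995, the first of which turned with the mean and the median CT, and in the cytoplasm LSK came first. In the nucleus the gap between myelocytes and promyelocytes was 0.10 on the raw CT and 1.51 scaled to the last 3 assays. The distance between preparations was not measured for nuclear RNA. Whole cell miR-21 ran myelocyte, promyelocyte, granulocyte, LSK with gaps of 0.60, 0.37 and 0.52 and spanned 2.82-fold. In the cytoplasm its lower 3 stages lay 0.21 and 0.18 apart, so that those neighbours could not be put in order.

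Nuclear RNA held less of each miRNA than cytoplasmic RNA at every stage, on the raw CT, as did most assays. The paper proposes that such low nuclear levels come mainly from slight carry-over of cytoplasmic miRNAs into the nuclear fraction. The share carried over was not tested here, so that the nuclear series cannot be taken as independent of the cytoplasmic one. The nuclear CT of miR-146a exceeded the cytoplasmic one by 4.86 cycles in LSK and 5.03 in myelocytes, but by 2.47 in promyelocytes and 2.65 in granulocytes. For miR-155 the excess, from LSK to granulocytes, was 3.43, 2.22, 3.95 and 3.54. For miR-21 it was 6.11, 4.48, 7.66 and 3.66, the largest of the 3 at every stage. The median over the assays under a cytoplasmic CT of 30 was 4.28 (n = 120), 2.92 (n = 94), 4.16 (n = 112) and 2.57 (n = 110), so that much of the variation between stages was common to all assays.

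Relative to these medians miR-21 lay to the cytoplasmic side by 1.83, 1.55, 3.50 and 1.09 cycles and ranked 107th of 120, 84th of 94, 103rd of 112 and 98th of 110 when counted from the most nuclear assay. The labels give 100 ng of RNA for each sample, while the study speaks of cell equivalent volumes for the fractions, so that it is not settled whether the ratios compare equal masses of RNA or equal numbers of cells. As a ratio of raw CT values its nuclear level was 1.45% of the cytoplasmic one in LSK and 4.48% in promyelocytes, then 0.493% in myelocytes and 7.91% in granulocytes. miR-146a followed the median, at 0.59, -0.45, 0.86 and 0.08 cycles from it, with ratios of 3.44%, 18.0%, 3.07% and 15.9%. miR-155 lay slightly to the nuclear side of the median in LSK, promyelocytes and myelocytes (-0.84, -0.70 and -0.21) and to the cytoplasmic side in granulocytes (0.97), where both its CT values were past 30; its ratios were 9.26%, 21.5%, 6.46% and 8.58%. Nuclear miR-21 was past a CT of 30 at every stage, so that its ratios are the least certain of the 3. The ratios listed by the study carry a divisor of 3, which these do not, so that each printed here is 3 times as large; ranks and distances from the median do not depend on it.

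**Figure D3:**
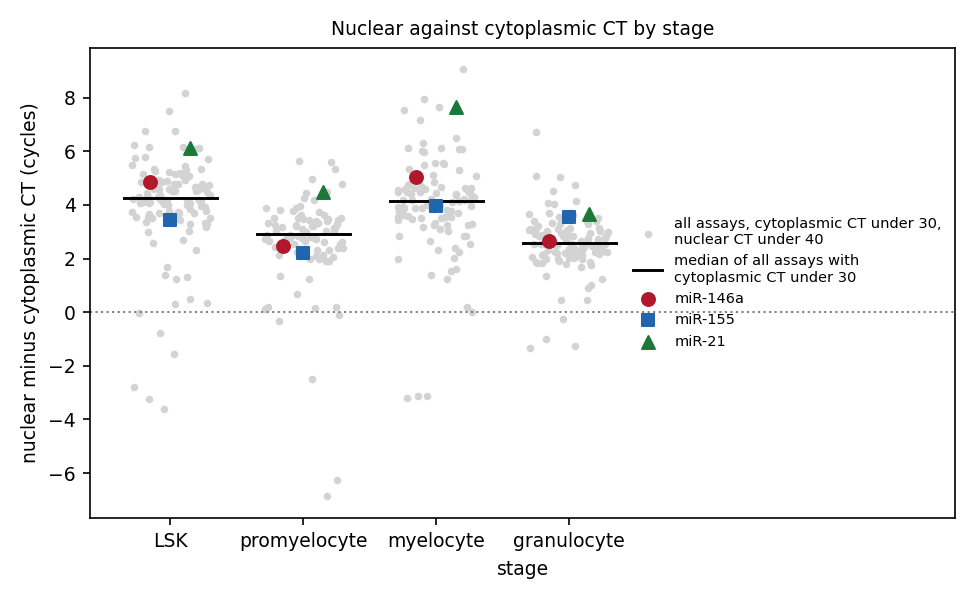
Nuclear minus cytoplasmic CT (cycles) at each stage; a value above 0 means less template in nuclear than in cytoplasmic RNA, grey points are the assays with a cytoplasmic CT under 30 and a nuclear CT under 40, and black bars are medians over all assays with a cytoplasmic CT under 30. miR-21 lies above the median at every stage, by 1.83, 1.55, 3.50 and 1.09 cycles, while miR-146a lies within 0.86 of it.

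Between nuclear samples, miR-155 was 3.62-fold lower in promyelocytes than in LSK (-1.86) and 82.8-fold lower in granulocytes than in LSK (-6.37), the second lowest of 71 changes whose median was 1.24. miR-146a was 5.12-fold lower in promyelocytes than in LSK (-2.36, the fourth lowest of 57) and 2.37-fold lower in granulocytes than in LSK (-1.24), which became -0.092 when scaled to the last 3 assays. Nuclear assays at least 2-fold lower made up 26.3% at the first of these comparisons and 16.9% at the other, and miR-146a and miR-155 were among them each time; miR-21, past a CT of 30 in each of these samples, could not be counted. From myelocytes to granulocytes nuclear miR-146a was 2.02-fold higher (1.01), at a step where 72.3% of assays were at least 2-fold higher; it became 0.99 with the last 3 assays and 0.034 with the mean CT, short of 2-fold. The nuclear split of called assays at that step, 47 higher and 2 lower, became 11 and 6 with the mean CT, and from LSK to granulocytes it went from 39 and 12 to 54 and 5 with the last 3 assays.

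The profiles of all named assays under a CT of 30 in at least 7 of the 8 whole cell and cytoplasmic samples were compared with those of the 3 miRNAs, each profile centred on its mean within each kind of RNA. The measure was the root mean square difference on the log2 scale over the 8 samples, which share their libraries and the offset of LSK noted above. Nearest to miR-146a were miR-150 (0.73), miR-342-3p (0.73) and miR-331-3p (0.97), against a median of 1.51 over 82 candidates. Nearest to miR-155 were miR-126-5p (0.87) and miR-126-3p (0.94), the arms of 1 precursor, and miR-222 (1.07), against a median of 2.35 over 83. Nearest to miR-21 were let-7a (0.26), let-7i (0.32) and miR-19b (0.35), against a median of 0.81 over 82. Among themselves the 3 miRNAs lay farther apart than from these assays, which were picked as the nearest: miR-146a and miR-21 lay 1.17 apart, miR-146a and miR-155 1.92, and miR-155 and miR-21 1.93. Both distances from miR-155 were under its candidate median of 2.35, and 1.17 was under the miR-146a median of 1.51. Against the miR-21 median of 0.81 both its distances were larger, as 1.92 was against that of miR-146a. Profiles were not scaled to equal spread, so that wide swings give large distances.

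miR-150, the assay nearest to miR-146a, is abundant in mature B and T cells and was listed as the lymphoid marker. Its whole cell CT from LSK to granulocytes was 25.1, 28.8, 25.6 and 25.8, and its cytoplasmic CT 24.1, 29.6, 25.3 and 26.5. Like miR-146a it was lowest in promyelocytes in both series. As a share of its LSK level, whole cell miR-150 stood at 6.72% in promyelocytes, 61.5% in myelocytes and 38.2% in granulocytes. It was the 1 lymphoid marker listed and was detected in all 12 samples; the sort removed cells with B220 and CD3. The part of lymphoid RNA in the miR-146a profile was not tested.

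The LSK markers, like miR-155, were highest in LSK. Relative to LSK their summed whole cell level was 11.7% (promyelocytes), 7.25% (myelocytes) and 7.08% (granulocytes), and the cytoplasmic sum 5.12%, 2.17% and 2.02%. The sums are carried by miR-126-3p, whose whole cell log2 change at the last step was 0.16. Of the other markers miR-196b (-2.36), miR-125b-5p (-1.41) and miR-130a (-1.12) were at least 2-fold lower at that step, as miR-155 was, though past a CT of 30 in both stages, and miR-125a-5p stood at 0.85. Over the 3 whole cell steps miR-196b read -3.73, -1.97 and -2.36 and miR-130a -1.05, -1.78 and -1.12, so that both were at least 2-fold lower at each, like miR-155. None of the 5 was listed at 40 in whole cell or cytoplasmic RNA, and 1 of them had a whole cell CT under 30 in granulocytes, miR-126-3p at 27.0. The part of progenitors remaining in the later sorts in the miR-155 values was not tested.

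**Figure D4:**
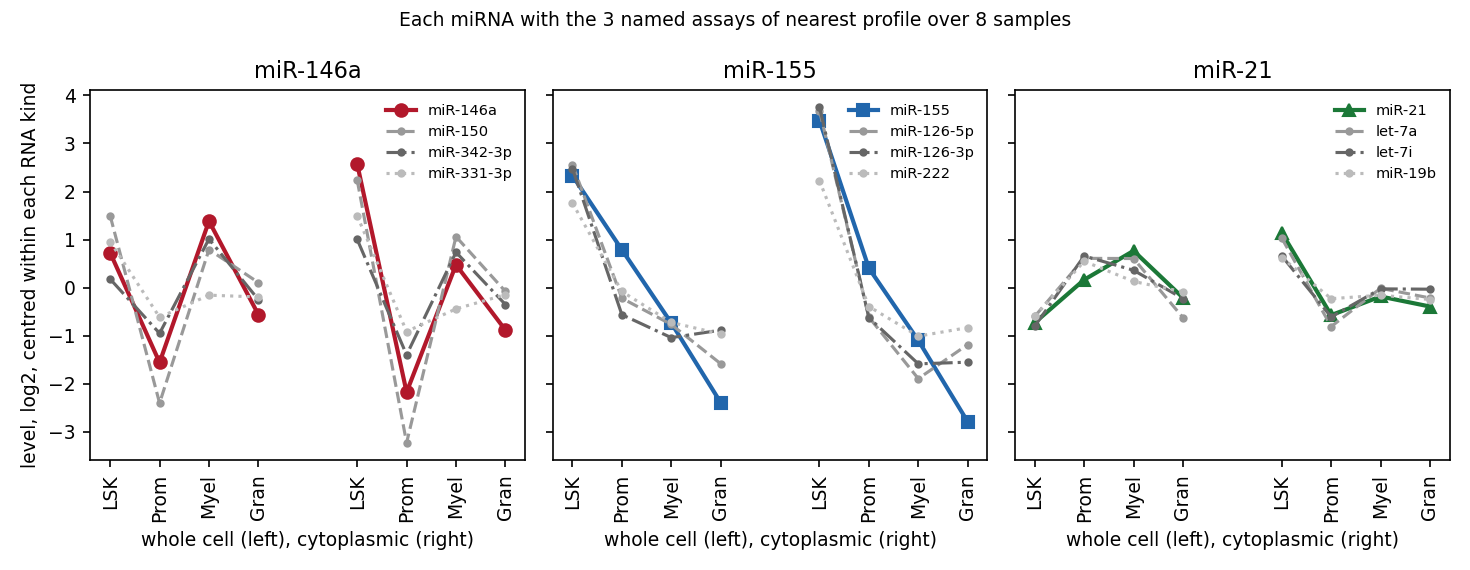
Centred log2 level of each miRNA (coloured) and of the 3 named assays of nearest profile (grey), over the 4 whole cell samples on the left and the 4 cytoplasmic samples on the right of each panel; each point is 1 well. miR-150 and miR-342-3p share the dip of miR-146a in promyelocytes, both arms of miR-126 are highest in LSK as miR-155 is but do not share its drop at every last step, and miR-21 spans 2.82-fold in whole cell and 3.28-fold in cytoplasmic RNA, with let-7a, let-7i and miR-19b close to it.

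A list of 14 other miRNAs linked to innate immune and NF-kB signalling was set beside the 3. Of these 12 were named and 9 had a whole cell CT under 30 at some stage. From LSK to promyelocytes 5 of the 9 were at least 2-fold higher in whole cell RNA, beside 31.2% of all assays, and 2 were lower, beside 17.0%. The higher ones included miR-223, the restraint on granulocyte production and activation (4.25), miR-19a (1.71) and let-7i (1.46), which targets Toll-like receptor 4; the lower ones were the stem cell miRNAs miR-125a-5p (-6.28) and miR-125b-5p (-2.29). The median of the 9 was 1.14, against 0.36 over all assays. In cytoplasmic RNA, where most assays were lower at this step, 1 of the 9 was higher and 5 were lower, beside 8.66% and 65.4% of all assays, with a median of -1.27 against -1.26 over all assays.

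From promyelocytes to myelocytes 2 of the 9 were at least 2-fold higher, miR-223 (2.16) and miR-301a (1.56), and none was lower, beside 39.5% and 12.6% of all assays, with a median of -0.24 against 0.66. From myelocytes to granulocytes 0 were higher and 1 was lower, miR-125b-5p (-1.41), near the 10.2% and 6.30% of all assays, with a median of -0.27 against 0.10. From LSK to granulocytes miR-223 (6.87) and miR-301a (2.72) were at least 2-fold higher, beside 52.3% of all assays, and miR-125a-5p (-6.04) and miR-125b-5p (-3.86) lower, beside 16.7%. The cytoplasmic counts were 3 higher and 0 lower at the second step, beside 55.0% and 10.0% of all assays, 0 and 2 at the third, beside 12.8% and 11.1%, and 2 and 4 from LSK to granulocytes, beside 32.6% and 37.0%. In whole cell RNA, of the 9, none was lower by 2-fold at all 3 steps as miR-155 and the LSK markers miR-196b and miR-130a were, and none was lower by 2-fold in promyelocytes and then higher by 2-fold in myelocytes as miR-146a was; in cytoplasmic RNA let-7e was, at -2.21 and then 1.04. The named ones of the list that stayed past the limit of 30 in whole cell RNA were miR-147, miR-132 and miR-9. miR-147, which Toll-like receptor stimulation induces in macrophages, was undetermined in LSK and promyelocytes and read 32.2 in myelocytes and 31.97 in granulocytes. miR-132 was undetermined in LSK, promyelocytes and myelocytes and read 33.3 in granulocytes. miR-9 was undetermined in LSK and promyelocytes and read 37.7 in myelocytes and 35.1 in granulocytes.

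**Figure D5:**
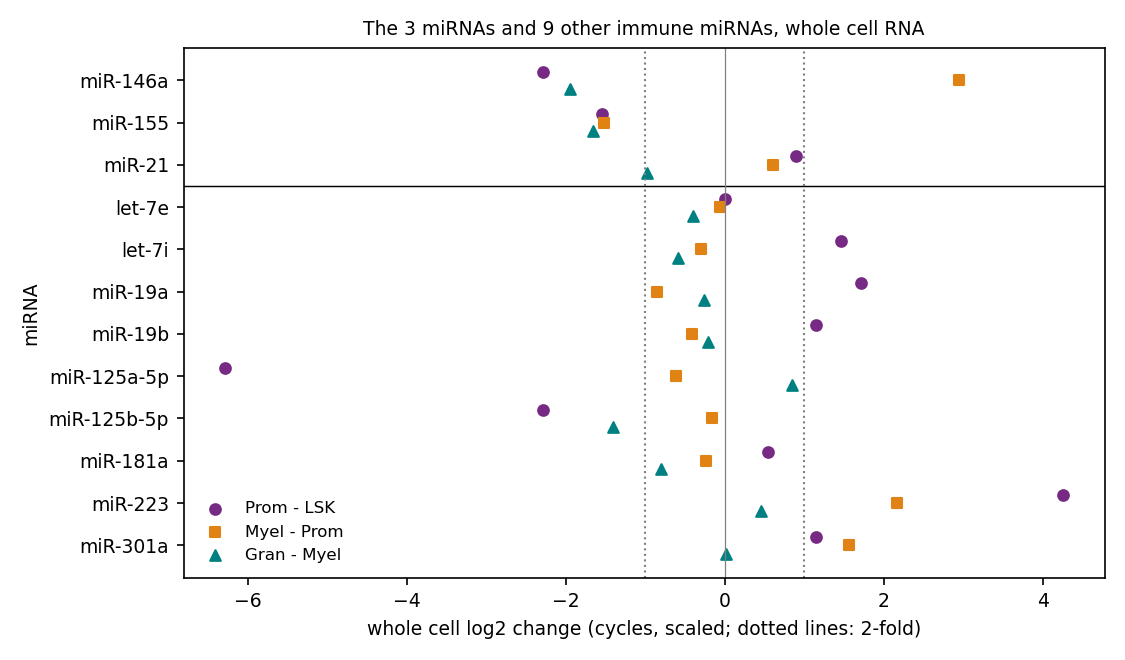
Whole cell log2 change (cycles, scaled to the last 3 assays) of the 3 miRNAs and of the 9 listed immune miRNAs under a CT of 30, with 1 point for each of the 3 maturation steps and dotted lines at 2-fold. On this scaling miR-146a swings from -2.28 to 2.94 and back to -1.94, the 3 points of miR-155 lie together at -1.54, -1.52 and -1.66, and miR-21 keeps within 2-fold.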

How the data were processed

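The authors ran whole cell, cytoplasmic and nuclear RNA (100 ng, PARIS kit fractions, Trizol) on TaqMan rodent microRNA array cards A and B and deposited raw CT values without normalization, which are treated here as a score in cycles; undetermined wells are listed at 40. All 12 columns were used. Of 269 named rows, 246 were named by fraction CT and 23 by whole cell differences, with 0 conflicts. The members and lists were chosen with earlier results of these data known.

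Whole cell CT values were scaled to the mean of the last 3 assays, a scaling inferred from the study's listed whole cell values and not stated in its methods: they equal the CT differences less this constant, times a common factor above 1, so that values here are smaller than the listed ones. Fraction CT values were left raw. Shares of assays past 2-fold count assays under a CT of 30 in either sample, whether named or not. With 1 sample per group and 1 well per assay the precision of a CT is unknown, and no test between stages was made; the 4 nuclear and cytoplasmic pairs were compared by exact sign flips. miRNAs named in the text are the 3 miRNAs, the named other arms of their precursors, the 3 nearest profiles of each, the immune list under a CT of 30 and the cell type markers. From the same list miR-147, miR-132 and miR-9 were added after their values were seen. Alternatives changed the scaling, the fold limit (1.5 and 3), the fold per cycle (1.9), the CT limit (28 and 32), the ratio divisor (3) and the set of assays (named only). The mRNA arrays were not analysed here. Tools were numpy 2.4.6, pandas 2.3.3 and matplotlib 3.10.9 under Python 3.11.15.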

Additional observations from a re-analysis of the deposited data

Results flagged for a closer look

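miR-21 went in opposite directions in whole cell and cytoplasmic RNA in all 3 comparisons with LSK. From LSK to myelocytes its log2 change was 1.49 in whole cell and -1.32 in cytoplasmic RNA, past 2-fold in both, and it stayed opposed with both kinds scaled alike, at 1.49 and -1.15 with the last 3 assays and 0.74 and -1.18 with the mean CT. From LSK to promyelocytes it was 0.89 in whole cell and -1.71 in cytoplasmic RNA, and from LSK to granulocytes it was 0.52 in whole cell and -1.53 in cytoplasmic RNA. The 2 kinds of RNA were scaled differently: with both scaled to the last 3 assays the promyelocyte pair became 0.89 and 0.14 and the granulocyte pair 0.52 and -2.95, and with both scaled to the mean CT they became 0.60 and -0.52, and -0.24 and -1.46. Without scaling of either kind both pairs stayed opposed, at 1.14 and -1.71 and at 1.19 and -1.53. On the scales reported, over all assays the whole cell change exceeded the cytoplasmic one by a median of 1.61 for promyelocytes, 1.12 for myelocytes and 1.17 for granulocytes against LSK. From promyelocytes to granulocytes miR-21 was also opposed on the scales reported, at -0.37 and 0.18, both within 2-fold. Scaled alike this pair was not opposed. It became -0.37 and -3.09 with the last 3 assays, -0.84 and -0.93 with the mean CT, and 0.054 and 0.18 without scaling. For miR-146a the change from LSK to myelocytes was 0.66 in whole cell and -2.10 in cytoplasmic RNA. It stayed opposed with both kinds scaled to the last 3 assays, at 0.66 and -1.92, and without scaling, at 0.89 and -2.10. Scaled to the mean CT, both were below 0, at -0.098 and -1.95. None of these differences was tested.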

How the results depend on the processing

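No paired analysis was possible because each group holds 1 sample; this holds for the comparisons between stages. The nuclear and cytoplasmic samples pair by stage: the nuclear CT was higher in 4 of 4 stages for each of the 3 miRNAs, with a two-sided exact sign-flip permutation p of 0.125, the smallest that 4 pairs allow. No sample could be left out in turn. Of 174 values of the 3 miRNAs recomputed with another scaling, cycle value or ratio, 138 kept their direction and their side of 2-fold, 13 lost it, 7 gained it, 8 turned and 8 changed sign within 2-fold. The 138 include 36 values at 1.9-fold per cycle and 12 with the ratio divided by 3, which could not change direction. miR-155 kept its direction in all whole cell and cytoplasmic comparisons between stages, and miR-146a did at the 3 single steps and from LSK to granulocytes. With the median CT the 3 whole cell steps of miR-155 became -1.36, -2.48 and -1.29, no longer of like size. From LSK to myelocytes whole cell miR-146a turned to -0.098 and -0.12 with the mean and the median CT, and miR-21 became 0.74 and 0.71. From promyelocytes to granulocytes whole cell miR-146a and miR-21 became 1.42 and 0.054 without scaling; in the cytoplasm they became -1.97 and -3.09 with the last 3 assays and 0.18 and -0.93 with the mean CT. In whole cell RNA without scaling, miR-146a from LSK to granulocytes became -0.61 and miR-21 became 1.14 from LSK to promyelocytes and 1.19 to granulocytes; with the mean CT the latter was -0.24, and with the median CT miR-21 became 1.07 and then -0.36 at the first and second step. A 3-fold limit left out miR-146a at -1.29, miR-155 at -1.54 and -1.52 and miR-21 at 1.49, and a 1.5-fold limit took in miR-21 at 0.89, 0.60 and -0.98 and miR-146a at 0.66 and 0.995. Scaled to the last 3 assays, cytoplasmic miR-146a at the second step became 0.97 and miR-21 became 0.14, -1.29 and -1.80 over the 3 steps; with the mean CT miR-21 became -0.52 and -0.66 at the first and second. Nuclear miR-146a, scaled to the last 3 assays, became 1.51 and 0.99 at the second and the third step and -0.092 from LSK to granulocytes, and 0.034 at the third step with the mean CT; nuclear miR-21 from LSK to granulocytes became 2.06 and -0.091 under these settings. Taken from the stage median, the nuclear minus cytoplasmic CT became 0.59, -0.45, 0.86 and 0.079 for miR-146a and -0.84, -0.70, -0.21 and 0.97 for miR-155. A CT limit of 28 moved the share of assays past 2-fold from myelocytes to granulocytes from 16.5% to 9.20%. The causes were not tested. Values past a CT of 30, which include granulocyte miR-155 and all nuclear miR-21, are limited by detection.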
